A study of Mus musculus with 2 samples.

Results

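The 35 cell cycle genes described here were taken as a fixed list from a total of 21887 protein-coding genes, and their chromatin contacts were read from H3K27ac HiChIP of mouse microglia. H3K27ac HiChIP joins DNA ends that lie near each other and enriches those on histone H3 acetylated at lysine 27, which is found at promoters and enhancers in use. The list was divided by the phase in which the products act, into 14 G1 genes, 9 S genes and 12 mitosis genes. A called interaction was assigned to a gene when 1 of its 10 kb anchors overlapped the span of the gene with 1 kb on each side (build mm10). All the mice were wild-type male C57BL/6J of 8 to 24 weeks. The sham group had surgery with no occlusion. In the day 6 group the middle cerebral artery was occluded for 60 minutes and then reopened (MCAO, which models ischemic stroke), and cells were taken 6 days later. Microglia of both groups were sorted from a hemisphere by intermediate CD45 and CD11b, 200000 to 300000 cells. There was 1 library per group, the sources used here do not give the number of mice behind each, and no difference below has a replicate check or a test.

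Passage through the cell cycle is driven by cyclin-dependent kinases, which are switched on by cyclins and held back by small inhibitor proteins. D cyclins with Cdk4 or Cdk6 begin to inactivate the retinoblastoma protein Rb in G1, E cyclins with Cdk2 complete this step, and E2F factors then switch on the genes of DNA replication. Cyclins A and B with Cdk1 drive mitosis together with Aurora and Polo-like kinases. Microglia of the adult brain divide rarely at rest and are known to proliferate after ischemic injury. H3K27ac contacts of a gene are a feature of its chromatin and not a measure of its transcript or of cell division.

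The sham list held 19061 interactions with 501608 contacts and the day 6 list 42905 interactions with 1074041 contacts, although the number of contacts modelled by the caller was lower at day 6 (2258259 against 3629250). A gene missing from a list therefore had no contact that the caller accepted, and how many lay under its limit is unknown. All 10 microglia markers, among them P2ry12, Tmem119, Cx3cr1, Csf1r and Sall1, had interactions in both lists, with 2531 contacts in sham and 2761 at day 6. By the rule of size defined below, 6 of the 10 had fewer contacts at day 6 and 0 more, with a median log2 ratio of -1.14. The same rule gave fewer for 10.3% and more for 39.1% of all the genes it could call. Such shares depend on the scaling, and by modelled contacts they were 0.820% and 84.0%. Marker ratios in that scaling are not given here, so a loss of contacts at the microglia markers cannot be read from this count. Their summed contacts before scaling were not lower at day 6. Markers of monocytes and border macrophages had interactions for 4 of 9 genes in sham (338 contacts) and 7 at day 6 (521), with Ly6c2 and Cd163 in neither list. The neutrophil list had 0 and 1 of 6 genes (0 and 91 contacts, all of Cxcr2), and S100a8, S100a9, Ly6g, Mmp8 and Camp were in neither. T, NK and B cell markers had 2 and 4 of 7 genes (149 and 383 contacts), with Cd3e, Cd2 and Nkg7 in neither. Neuronal markers had 2 of 6 genes in each list (217 and 102 contacts; Syt1, Snap25, Gad1 and Gad2 in neither), and those of oligodendrocytes 1 and 2 of 6 (189 and 484; Sox10, Olig1 and Olig2 among those in neither). Astrocyte markers had 4 of 6 in each list (349 and 636; Aqp4 and Gja1 in neither), as did those of endothelium and mural cells (211 and 622; Cldn5 and Rgs5 in neither). The part of such cells in the values below was not tested. In a bulk library more cells with a contact and more contacts per cell cannot be told apart.

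RefSeq start sites were given for 28 of the 35 genes, with 33 promoters. None was given for Ccnd1, Ccnd2, Ccne2, Rb1, Mcm4, Ccna2 and Aurkb. The 250 bases before the start are shown for the gene with the most day 6 interactions in each phase (Cdk6, Pcna and Ccnb1), and for 4 further genes chosen after their values were seen: the inhibitors Cdkn1a and Cdkn1b, whose contacts lay on opposite sides of 0, and Mcm7 and Plk1, which had interactions at day 6 alone. Of the 2 promoters each of Cdkn1a and Mcm7, the one with more of the matches described next is shown. They are written 5′ to 3′ from RefSeq, build GRCm38.p6. Capitals mark matches on either strand to CCAAT (the box bound by NF-Y), to the E2F forms TTTCCCGC, TTTGGCGC, TTTCGCGC and TTTGCCGC, to TTTGAA or TTTAAA (the CHR element of late cell cycle genes) and to the core of a p53 element, CATG followed after 6 bases by CATG. Matches to different motifs shared no bases in the 33 promoters.
Cdk6 (chr5:3343643-3343892, + strand): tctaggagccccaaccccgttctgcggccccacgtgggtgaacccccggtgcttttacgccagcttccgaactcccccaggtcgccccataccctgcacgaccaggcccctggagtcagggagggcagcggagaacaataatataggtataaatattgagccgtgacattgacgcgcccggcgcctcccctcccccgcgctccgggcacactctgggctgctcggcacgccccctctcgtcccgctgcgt
Cdkn1a (chr17:29090729-29090978, + strand): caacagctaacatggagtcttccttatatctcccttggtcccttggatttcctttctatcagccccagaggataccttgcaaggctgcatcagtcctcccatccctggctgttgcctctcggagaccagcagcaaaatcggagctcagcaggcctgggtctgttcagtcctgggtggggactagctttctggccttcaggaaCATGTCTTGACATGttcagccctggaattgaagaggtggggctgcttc
Cdkn1b (chr6:134920151-134920400, + strand): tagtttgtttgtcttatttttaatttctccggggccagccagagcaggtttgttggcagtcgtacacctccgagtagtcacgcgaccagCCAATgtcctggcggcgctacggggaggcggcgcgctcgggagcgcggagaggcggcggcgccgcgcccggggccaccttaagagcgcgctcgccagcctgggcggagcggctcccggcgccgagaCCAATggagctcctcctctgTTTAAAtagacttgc
Pcna (chr2:132253181-132253430, - strand): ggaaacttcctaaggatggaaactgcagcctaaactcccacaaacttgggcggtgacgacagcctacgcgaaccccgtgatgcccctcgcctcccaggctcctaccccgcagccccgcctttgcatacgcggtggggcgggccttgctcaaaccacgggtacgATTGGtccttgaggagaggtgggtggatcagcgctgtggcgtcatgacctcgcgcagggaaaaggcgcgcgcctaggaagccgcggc
Mcm7 (chr5:138171884-138172133, - strand): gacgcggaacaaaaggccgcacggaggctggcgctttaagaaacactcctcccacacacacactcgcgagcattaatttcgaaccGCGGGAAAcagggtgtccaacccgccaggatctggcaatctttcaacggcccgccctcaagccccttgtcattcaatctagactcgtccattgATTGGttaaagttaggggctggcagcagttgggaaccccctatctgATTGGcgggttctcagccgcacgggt
Ccnb1 (chr13:100786487-100786736, - strand): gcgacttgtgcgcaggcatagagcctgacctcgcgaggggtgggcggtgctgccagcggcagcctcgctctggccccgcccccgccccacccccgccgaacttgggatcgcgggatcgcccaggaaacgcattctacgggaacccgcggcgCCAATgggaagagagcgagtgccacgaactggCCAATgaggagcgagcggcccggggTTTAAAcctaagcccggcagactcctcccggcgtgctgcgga
Plk1 (chr7:122159185-122159434, + strand): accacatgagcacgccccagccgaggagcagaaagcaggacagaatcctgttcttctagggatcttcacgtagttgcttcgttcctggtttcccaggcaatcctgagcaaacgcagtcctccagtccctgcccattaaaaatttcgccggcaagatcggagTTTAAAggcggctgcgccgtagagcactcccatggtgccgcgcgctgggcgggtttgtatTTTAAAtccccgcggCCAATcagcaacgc

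Each of these windows lies inside a 10 kb bin that was an anchor at day 6, and those of Cdk6, Cdkn1a and Cdkn1b lie in bins that were anchors in sham too. Of the 10 mitosis promoters 9 held a CCAAT box, 8 a CHR match, and 6 at least 2 CCAAT boxes with a CHR match, whereas 35.4%, 23.1% and 2.48% of all 21263 promoters did. Ccnb1 has boxes that begin 99 and 67 bases before the start, with a CHR match 42 bases before it. Of the 9 S promoters 8 held a CCAAT box and 3 an E2F match, which 2.35% of all promoters held. Of the 14 G1 promoters 4 held a CCAAT box, 2 an E2F match and 3 a CHR match. The Cdk6 window held none of the 4 motifs. The p53 core was found in 1 member promoter, the first of Cdkn1a, and in 0.423% of all promoters. The matches describe letters in a window that is much shorter than an anchor, and nothing in the interaction lists places a contact on them.

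The number of cell cycle genes with any called interaction was 17 of 35 in sham and 30 of 35 at day 6. The background was 43.0% of protein-coding genes in sham and 61.3% at day 6. By phase, in sham 10 of 14 G1 genes, 4 of 9 S genes and 3 of 12 mitosis genes had an interaction. At day 6 the numbers were 13 of 14, 8 of 9 and 9 of 12. Of the 35 genes, 14 had interactions at day 6 alone (3 G1, 4 S and 7 mitosis genes), against 20.0% of all genes. Cdk1 alone had its interaction in sham and none at day 6, against 1.66% of all genes. Ccne1, Rrm2, Ccna2 and Bub1 were in neither list. The day 6 list was 2.25 times as long. When it was limited to its 19061 best interactions by q-value, 23 of the 35 genes had an interaction there, against 49.9% of all genes.

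**Figure D1:**
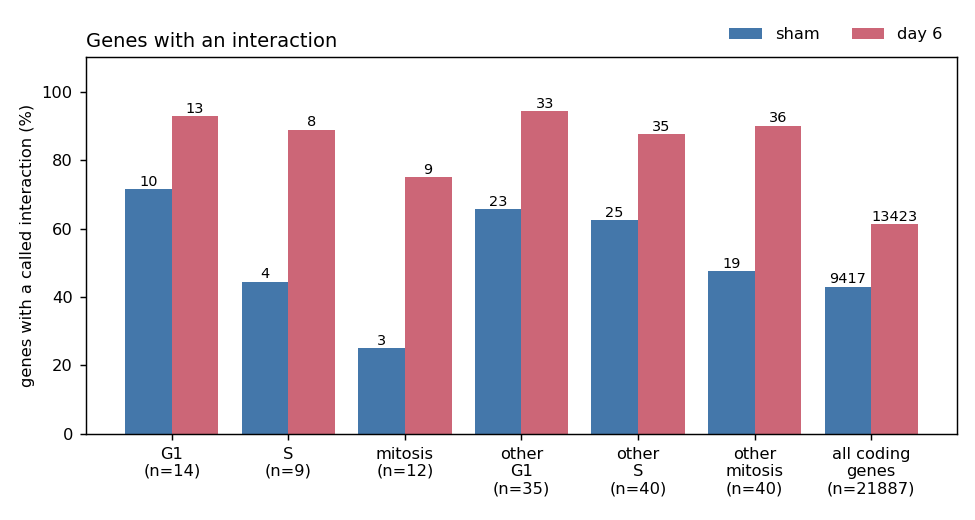
Share of genes with at least 1 called interaction (percent, bars from 0) in sham and at day 6, for the 3 phases, for other cell cycle genes of each phase and for all protein-coding genes; numbers over the bars are genes. Mitosis genes had the lowest sham share of the lists shown, 25.0%, and 9 of the 12 had an interaction at day 6.

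Interactions were concentrated in the G1 genes, which held 85 of the 98 member interactions in sham and 147 of 196 at day 6. The S genes held 10 and 24, and the mitosis genes 3 and 25. Part of the difference in number goes with the span of the genes, since Cdk6 covers 20 bins and holds 34 and 37 interactions. Per bin of gene span, G1 genes had 1.08 interactions in sham and 1.86 at day 6, S genes 0.400 and 0.960, and mitosis genes 0.0882 and 0.735, against 0.250 and 0.610 over all genes. Without Cdk6 the G1 values were 0.864 and 1.86.

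**Figure D2:**
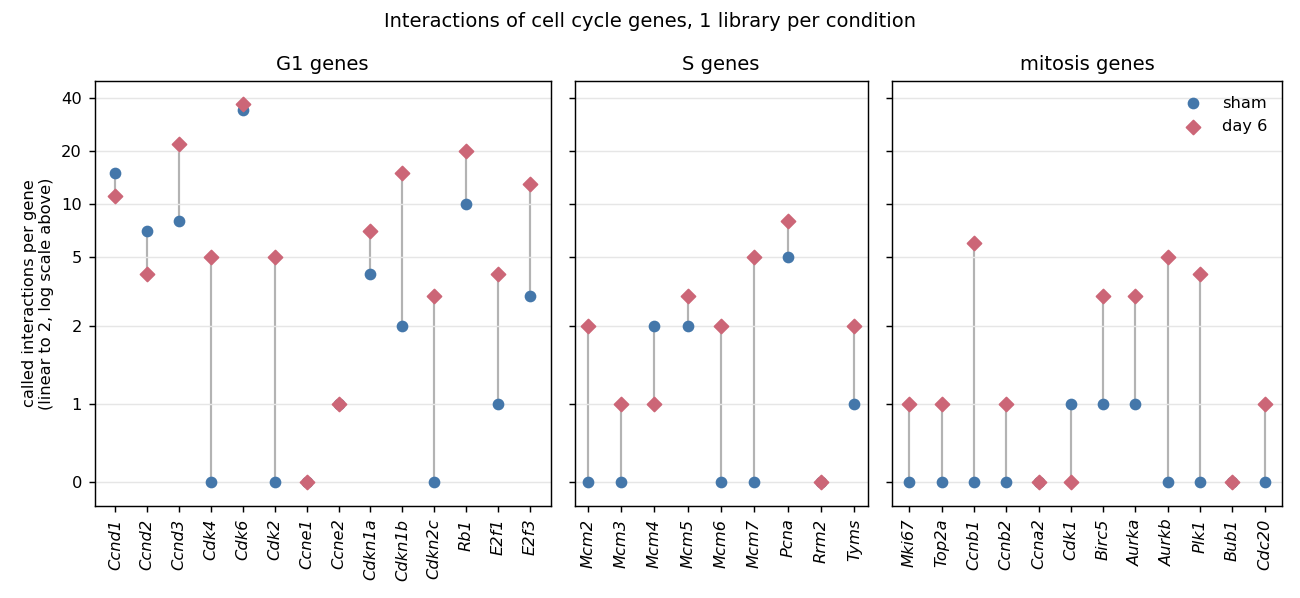
Called interactions of each of the 35 genes in sham (circles) and at day 6 (diamonds), by phase; the vertical axis is linear to 2 and logarithmic above. Ccnd1, Ccnd2, Mcm4 and Cdk1 had fewer interactions at day 6, and Ccne1, Rrm2, Ccna2 and Bub1 had none in either library.

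To compare contacts, the log2 ratio of a gene's summed contacts, day 6 over sham, was taken per total of called contacts with a prior of 5 contacts. A ratio of at least 1 counted as more and -1 or less as fewer if the gene had at least 3 interactions in 1 list. This rule of size stands in for a test. Of the 20 cell cycle genes with enough interactions, 8 had more contacts at day 6, 3 had fewer and 9 were neither, where 39.1% of the 9638 genes that could be called had more and 10.3% fewer. Those with more were Cdk4, Cdk2, Cdkn1b, Cdkn2c, Mcm7, Ccnb1, Aurkb and Plk1. All of these but Cdkn1b had no sham interaction, so that their ratio rests on the prior. Those with fewer were Ccnd1, Ccnd2 and Cdkn1a, which are all G1 genes. Of the 13 callable members present in both lists, 9 are G1 genes. The 8 of 20 is close to the background share and is no result about cell cycle genes as a set. Among the 13 callable members present in both lists, 1 had more and 3 fewer, against 23.4% and 12.7% of such genes in all. The direction depends on the scaling: by contacts of shared interactions 13 members had more and 0 fewer (all genes 66.3% and 1.93%), by modelled contacts 15 and 0 (84.0% and 0.820%). When both lists had the same length, 4 of 12 members had more and 3 fewer (30.1% and 17.9%). The 16 members present in sham and at day 6 had a median log2 ratio of -0.27, against 0.03 over such genes in all. The median over all measured genes was 0.68, but 1.68 by shared interactions and 2.22 by modelled contacts, so that ratios below are best read against those values.

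**Figure D3:**
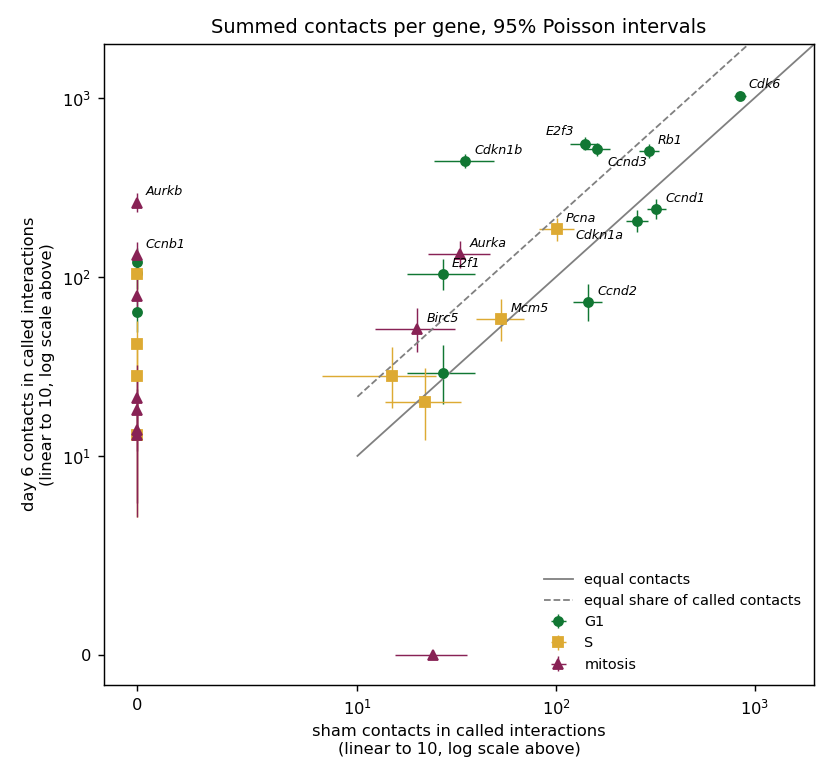
Summed contacts of each measured gene in sham (horizontal) and at day 6 (vertical), with 95% Poisson intervals for sums above 0; both axes are linear to 10 and logarithmic above. The solid line marks equal contacts and the dashed line equal shares of called contacts: Ccnd1, Ccnd2 and Cdkn1a lie below the solid line, and Cdkn1b, with 35 and 445 contacts, lies far above the dashed one.

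The 3 D cyclins, which bind Cdk4 and Cdk6 to start G1 progression, did not share a direction. Ccnd1 (chromosome 7, 144929931 to 144939831) had 15 interactions with 320 contacts (95% Poisson interval 286 to 357) in sham and 11 with 240 (211 to 272) at day 6. This is a log2 ratio of -1.49 (counting interval -1.76 to -1.27), but 0.26 with scaling by modelled contacts. The contacts were lower at day 6 even before scaling, and the intervals of these sums, which include the 1 kb flank, do not overlap. Without the flank Ccnd1 had 11 interactions with 241 contacts in sham and 9 with 208 at day 6, log2 -1.28. Those sums lie closer together, and a separation of their intervals is not claimed. Ccnd2 (chromosome 6, 127125162 to 127152188) had 7 interactions with 145 contacts (122 to 171) in sham and 4 with 72 (56.3 to 90.7) at day 6, a log2 ratio of -2.01 (-2.54 to -1.69), but -0.50 when only the bins of the gene ends were used. It was -0.31 with scaling by modelled contacts. Ccnd3 (chromosome 17, 47505051 to 47599689) went the other way in raw contacts, with 8 interactions and 160 contacts (136 to 187) in sham and 22 with 516 (472 to 563) at day 6, and its log2 ratio of 0.58 (0.33 to 0.86) was neither more nor fewer. Its anchors also lie on Bysl and Taf8, and with anchors that hold no other coding gene it had 5 and 9 interactions and a ratio of -0.02. With a q-value limit of 1e-05 Ccnd3 had no sham interaction and 12 at day 6.

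The places that the D cyclins contacted also differed. Ccnd1 reached mainly to higher coordinates, past a stretch without coding genes to Tpcn2, which encodes an endolysosomal channel. Bins of Tpcn2, 250 to 320 kb away in sham and 280 to 350 kb at day 6, held 7 interactions with 123 contacts in sham and 3 with 61 at day 6. Bins without a coding gene held 7 interactions in sham and 8 at day 6. The pair with the most sham contacts, 44, joined LTO1 20 kb to the other side and was not called at day 6. Part of the Ccnd1 anchors lie on LTO1 too. The anchor without another coding gene, 144940001 to 144950000, held 4 interactions with 79 contacts in sham and 2 with 32 at day 6, log2 -2.18. That bin overlaps only the 1 kb flank and holds no part of Ccnd1 itself. The 4 pairs of bins that both lists had in common held 95 contacts in sham and 96 at day 6, so that in these pairs the counts were nearly equal. The shared pair with the most contacts, 180 kb apart, had 32 in sham and 40 at day 6. With anchors allowed to differ by 1 bin, 11 of 15 sham interactions of Ccnd1 had a partner at day 6. Ccnd2 reached bins without a coding gene 110 to 220 kb away and Parp11 at 300 kb in sham, and shared 1 pair, with 33 contacts in sham and 18 at day 6. At day 6 it also contacted Tigar, which encodes a fructose bisphosphatase, with 17 contacts at 50 kb. Ccnd3 contacted bins of Usp49, a deubiquitinase gene, by 4 interactions with 88 contacts in sham and 6 with 161 at day 6, and all its partners in both lists held coding genes.

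The kinases that D cyclins bind differed from each other. Cdk6 (chromosome 5, 3341004 to 3531008) had the most interactions of all members, 34 with 843 contacts (787 to 902) in sham and 37 with 1030 (968 to 1095) at day 6. Its log2 ratio was -0.81 (-0.94 to -0.68), and 0.97 with scaling by modelled contacts. Most interactions joined bins inside the gene itself, 31 of 34 in sham and 24 of 37 at day 6. The bin from 3500001 to 3510000, inside the gene, was its busiest in both libraries by contacts, with 9 interactions in each and 335 contacts in sham against 345 at day 6. The bin of the start site had 7 interactions with 151 contacts in sham and 9 with 289 at day 6, and its relative coverage, the coverage of a bin over a constant of the library, was 1.00 and 1.90. Both lists shared 11 pairs of Cdk6 bins, with 316 contacts in sham and 408 at day 6. At day 6 the gene also reached further outside, with 2 interactions to Gatad1 and 1 of 1930 kb. Cdk4 (chromosome 10, 127063535 to 127067288) had no interaction in sham and 5 with 105 contacts (85.9 to 127) at day 6. Its single bin also holds Marchf9 and Tspan31 and contacted B4galnt1, Lrp1, Pan2, Esyt1 and the bin of Erbb3 and Pa2g4, 100 to 1500 kb away.

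Of the E cyclins and Cdk2, which complete the inactivation of Rb, Ccne1 was in neither list. Ccne2 had 1 interaction in each, between the same pair of bins, the partner being Ints8 50 kb away, with 27 contacts in sham and 29 at day 6. Cdk2 (chromosome 10, 128697938 to 128705051) had none in sham and 5 with 121 contacts (100.4 to 145) at day 6, in bins shared with Pmel and Rab5b. Its strongest pair, with the bin of Ikzf4 and Rps26 70 kb away, had 39 contacts where the caller expected 11.5. Esyt1 was a partner of both Cdk4 and Cdk2 at day 6, through the same bin, while no interaction joined these kinase genes to each other.

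The 3 inhibitor genes had different patterns. Cdkn1b (chromosome 6, 134920401 to 134925525), whose product inhibits Cdk2 complexes and holds cells in quiescence, had 2 interactions with 35 contacts (24.4 to 48.7) in sham and 15 with 445 (405 to 488) at day 6. Its log2 ratio of 2.47 (2.07 to 3.11) was the highest of the 13 callable members present in both lists, and it ranged from 2.21 to 4.13 over the settings tried. No other coding gene lies in its bins, but the bin from 134910001 to 134920000 overlaps only the 1 kb flank. Without the flank Cdkn1b had 1 interaction with 16 contacts in sham and 10 with 275 at day 6, log2 2.78. The day 6 interactions reached both sides: 2 to Gpr19 at 20 to 30 kb with 155 contacts, 4 to the Ets factor gene Etv6 at 720 to 770 kb with 57, and others to Bcl2l14, Borcs5, Dusp16 and Apold1. The sham interactions, to Borcs5 and Dusp16 with 19 and 16 contacts, lay 260 and 150 kb away, and neither pair of bins was called at day 6, where other bins of both genes were contacted, at 250 to 290 kb and 130 kb. The bin of the start site had 1 interaction in sham and 10 at day 6. Relative coverage of the 2 Cdkn1b bins averaged 1.36 in sham and 1.80 at day 6.

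Cdkn1a (chromosome 17, 29090979 to 29100722), a p53 target that arrests cells in G1, had 4 interactions with 256 contacts (226 to 289) in sham and 7 with 206 (179 to 236) at day 6. It thus had more interactions but fewer contacts at day 6, with a log2 ratio of -1.38 (-1.68 to -1.14) that was 0.36 with scaling by modelled contacts. The sham contacts were short: 3 interactions to Srsf3, a splicing factor gene, at 50 to 60 kb with 179 contacts, and 1 of 20 kb with 77. At day 6, 2 interactions to Srsf3 held 96 contacts, and the other 5 reached Anks1, Pnpla1, the bin of BC004004 and Ppil1, the kinase gene Pim1 at 400 kb with 33 contacts, and a bin without a gene. The 2 shared pairs had 122 contacts in sham and 96 at day 6. Relative coverage of its 2 anchor bins was higher at day 6 by a log2 ratio of 0.54. Cdkn2c (chromosome 4, 109660876 to 109666756), an inhibitor of Cdk4 and Cdk6, had no interaction in sham and 3 with 64 contacts (49.3 to 81.7) at day 6, to Rnf11, 4930522H14Rik and Faf1.

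**Figure D4:**
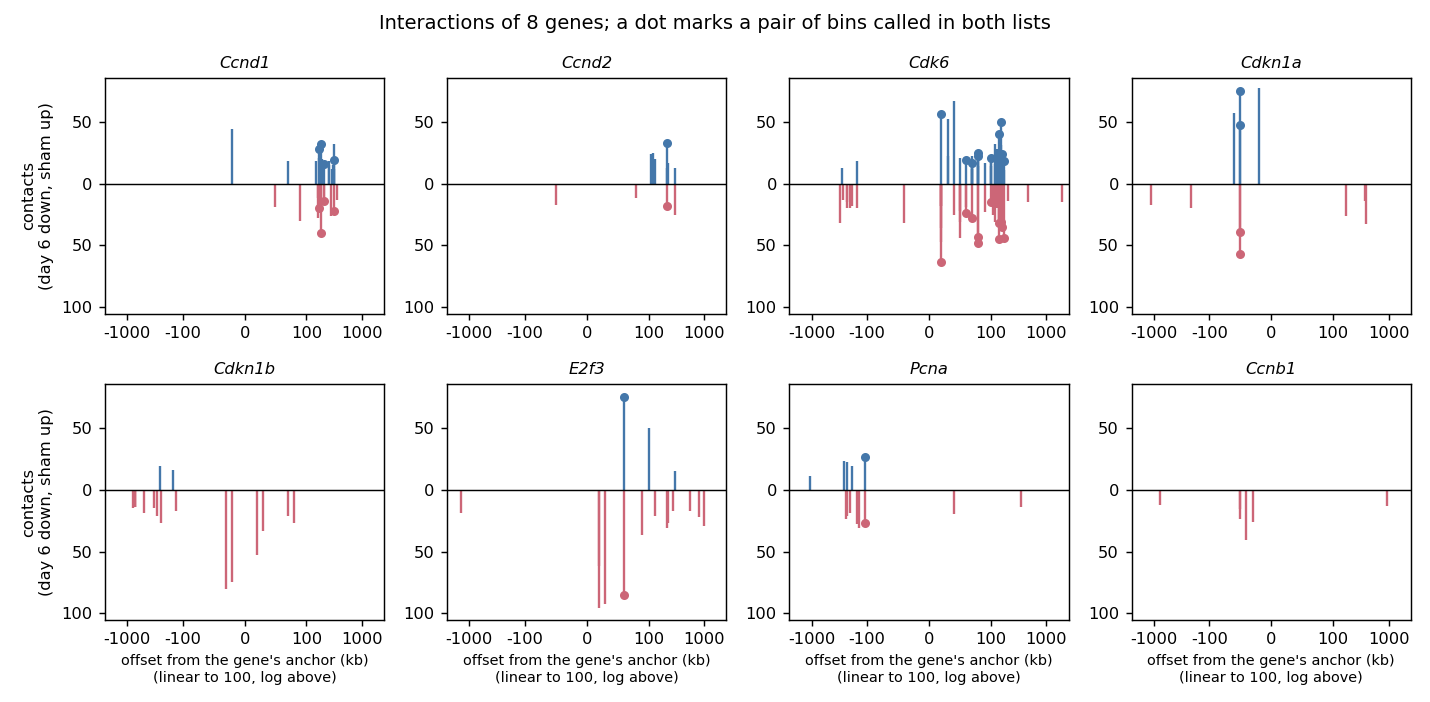
Contacts of each interaction of 8 genes against the offset of the partner bin from the gene's anchor (kb along the genome, positive to higher coordinates; linear to 100, logarithmic above), with sham drawn up and day 6 drawn down. A dot marks a pair of bins called in both lists: Cdk6 has 11, Ccnd1 has 4 and Cdkn1b has none. For Cdk6 most partners are bins of the gene itself.

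Rb1 and the E2F genes had more interactions at day 6 without passing the rule of size. Rb1 (chromosome 14, 73192858 to 73325951) had 10 with 294 contacts (261 to 330) in sham and 20 with 504 (461 to 550.0) at day 6, log2 -0.32 (-0.53 to -0.11), but 1.44 with scaling by modelled contacts. The bins of the gene ends alone held 0 interactions in sham and 1 at day 6. Its main partner in both libraries was Rcbtb2, which held 5 interactions with 152 contacts in sham and 7 with 196 at day 6. All 10 sham interactions of Rb1 had a day 6 partner within 1 bin. At day 6 Rb1 also contacted Lrch1 by 3 interactions at 1580 to 1680 kb. Part of the Rb1 anchors also lie on Lpar6, and 5 interactions in sham and 13 at day 6 had an Rb1 anchor without another coding gene. E2f3 (chromosome 13, 29906575 to 29986064), an activating E2F, had 3 with 140 contacts (118 to 165) in sham and 13 with 555 (510 to 603) at day 6, log2 0.87 (0.62 to 1.17). The bin at its start sites, 29980001 to 29990000, held 2 of these in sham and 10 at day 6, and its relative coverage was 2.11 and 4.52. The shared pair of E2f3, 60 kb apart, had 75 contacts in sham and 85 at day 6. E2f1 (chromosome 2, 154559400 to 154569892) had 1 with 27 contacts in sham and 4 with 104 at day 6, log2 0.78 (0.22 to 1.52), but -0.56 with the gene ends only and below -1 with the start bin only, and its anchors also lie on 1700003F12Rik, Actl10 and Necab3.

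S genes, which make and load the replication machinery, had few interactions. Pcna (chromosome 2, 132249286 to 132253180), the sliding clamp of DNA polymerase, had 5 with 101 contacts (82.3 to 123) in sham and 8 with 184 (158 to 213) at day 6, log2 -0.23 (-0.59 to 0.13), an interval that includes 0. Its partners lay largely on 1 side, at Slc23a2 and Rassf2 110 to 240 kb away. Slc23a2 held 2 interactions with 45 contacts in sham and 3 with 86 at day 6, and Rassf2 1 with 22 and 2 with 45. The bin of the Pcna start site had 0 interactions in sham and 3 at day 6, and the anchors also lie on Cds2 and Tmem230.

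The 6 Mcm genes encode the subunits of the replicative helicase. All 6 had an interaction at day 6, and of these Mcm4 and Mcm5 also had interactions in sham. Mcm7 (chromosome 5, 138164583 to 138172111) had none in sham and 5 with 104 contacts at day 6, in bins shared with Ap4m1, Cops6 and Taf6. Its pair with the most contacts, 26, joined the bin of A430033K04Rik and Zfp68 450 kb away. Mcm5 (chromosome 8, 75109468 to 75128439) had 2 with 53 contacts in sham and 3 with 58 at day 6, log2 -0.89 (-1.53 to -0.40) but 0.75 with scaling by modelled contacts, mainly with Tom1, and its anchors also lie on Hmox1. Mcm4 had 2 interactions with 22 contacts in sham and 1 with 20 at day 6, the latter with the bin of Cebpd and Spidr. Mcm2, Mcm6 and Mcm3 had 2, 2 and 1 interactions at day 6, with 28, 42 and 13 contacts. Tyms, thymidylate synthase, had 1 with 15 contacts in sham and 2 with 28 at day 6, and Rrm2, a subunit of ribonucleotide reductase, was in neither list.

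Mitosis genes were the group with the fewest sham interactions, 3 among 12 genes, each of them a single interaction of 1 gene. Aurkb (chromosome 11, 69045624 to 69051664), the kinase of the chromosomal passenger complex, had none in sham and 5 with 260 contacts (229 to 294) at day 6. Its strongest pair, 20 kb away with the bin of Borcs6 and Tmem107, had 145 contacts where 73.3 were expected, and the pair at 80 kb with Aloxe3 and Hes7 had 66 where 14.7 were expected. A sham interaction lay within 1 bin of the 80 kb pair at both ends, though not on Aurkb. Only these 2 interactions, with 211 contacts, used an anchor without another coding gene, and the mean relative coverage of the 2 Aurkb bins was 2.30 against a median of 0.925 over all day 6 anchors. Ccnb1 (chromosome 13, 100778739 to 100786486), cyclin B1, had none in sham and 6 with 132 contacts (110 to 157) at day 6, of which 5 used an anchor that holds no other coding gene. Of all 6, 4 lay within 50 kb, at Cenph, Mrps36 and Cdk7, the kinase that activates cyclin-dependent kinases. The other 2 reached Mccc2 and Pik3r1 at 780 and 940 kb. The interactions with Cdk7, 2 with 16 and 24 contacts, were the only ones that joined a member to another gene of the cell cycle lists used here. Plk1 (chromosome 7, 122159435 to 122169884), the Polo-like kinase, had none in sham and 4 with 78 contacts (61.7 to 97.3) at day 6. The strongest, 1200 kb away, joined the bin of Arhgap17 and Lcmt1 with 28 contacts where 3.1 were expected, but its anchor lies in the 1 kb flank past the end of the gene. With the gene ends only Plk1 had 2 interactions with 34 contacts. Its anchor bins also hold Dctn5 and Ern2, and no interaction had an anchor on Plk1 alone.

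The remaining mitosis genes had at most 3 interactions each. Aurka, the spindle pole kinase, had 1 interaction with 33 contacts (22.7 to 46.3) in sham and 3 with 134 (112 to 159) at day 6, log2 0.86 (0.36 to 1.52), through bins that also hold Cstf1. Birc5, which encodes survivin, had 1 with 20 contacts and 3 with 51, log2 0.22 (-0.52 to 1.08), an interval that includes 0. Mki67, the gene of the proliferation marker Ki-67, was missing from the sham list and had 1 interaction with 13 contacts (6.92 to 22.2) at day 6. Top2a, topoisomerase II alpha, had 1 with 21, Ccnb2 1 with 18 and Cdc20, the activator of the anaphase-promoting complex, 1 with 14, all at day 6 alone. Cdk1, the mitotic kinase, had 1 with 24 contacts (15.4 to 35.7) in sham, to Rhobtb1 110 kb away, and none at day 6. Ccna2 and Bub1 had none in either list.

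**Figure D5:**
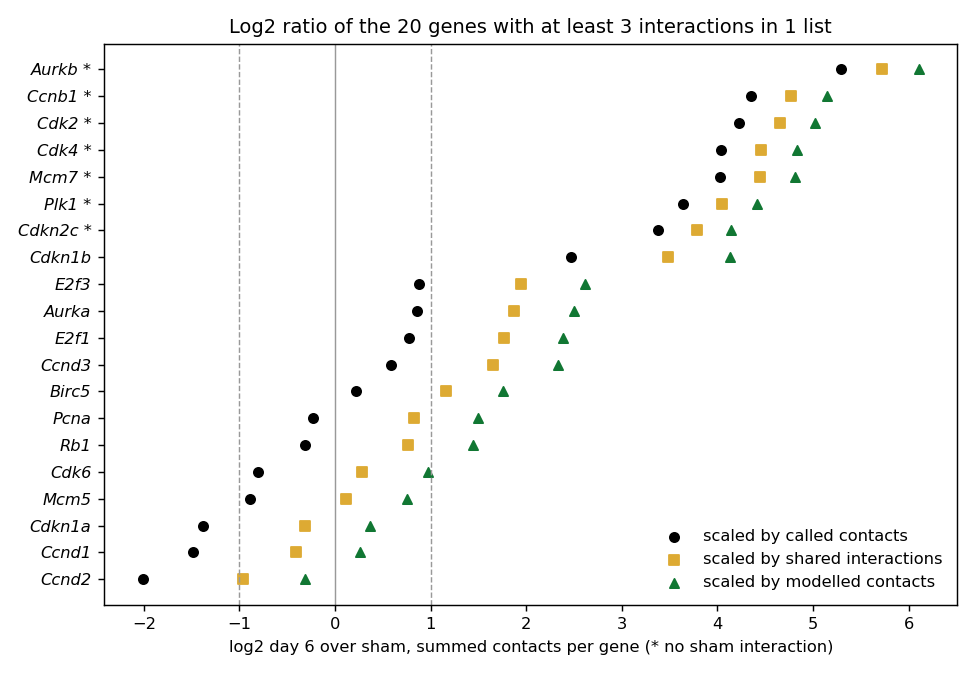
Log2 ratio of day 6 over sham for the 20 genes with at least 3 interactions in 1 list, scaled by called contacts (circles), by shared interactions (squares) and by modelled contacts (triangles); dashed lines mark -1 and 1, and an asterisk marks genes without a sham interaction, whose ratio rests on the prior. Ccnd1 and Cdkn1a lie below -1 in the first scaling and above 0 in the third.

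At the bins of RefSeq start sites alone, available for 28 members, 10 had an interaction in sham and 22 at day 6, where 31.5% and 52.2% of 17492 genes did. By phase these were 6 and 9 of 10 G1 genes, 1 and 5 of 8 S genes and 3 and 8 of 10 mitosis genes. This measure gives nearly every gene 1 bin and so does not grow with the span.

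In sham, member interactions were more often of middle distance than the list: 67.3% (exact 95% interval 57.1 to 76.5%) spanned 50 to 200 kb against 49.6%, and 21.4% (13.8 to 30.9%) spanned 200 kb to 1 Mb against 34.9%. Of the 98 sham interactions, 31 had both anchors on Cdk6, and interactions of 1 gene are not independent. Without Cdk6 these shares were 57.8% (44.8 to 70.1%) and 31.2% (20.2 to 44.1%), and both intervals include the share of the list. At day 6 the shares were 43.9% against 38.0% and 34.2% against 35.7%. The median distance over member interactions was 140 kb in sham and 160 kb at day 6, the same as over all interactions, but 170 and 180 kb without Cdk6. Those of 1 to 2 Mb made up 3.06% (0.64 to 8.69%) of the 98 sham interactions and 8.67% (5.13 to 13.5%) of the 196 at day 6, against 2.71% and 9.58% of the lists. Of the member interactions, 28 pairs of bins were in both lists, which is 28.6% (19.9 to 38.6%) of those in sham and 14.3% (9.71 to 20.0%) of those at day 6. With 1 bin of tolerance 72.4% (62.5 to 81.0%) of the sham interactions had a day 6 partner, against 57.4% over the list, and Cdk6 and Rb1 held 39 of these 71. Relative coverage of the 40 member bins that were anchors in both lists had a median log2 ratio of 0.16 (interquartile range -0.13 to 0.46), against -0.03 over 16670 common anchors, and 34 of the 40 were bins of G1 genes.

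Other genes of the same phases numbered 115, of which 67 had an interaction in sham and 104 at day 6. Over all genes the shares were 43.0% and 61.3%. By the rule of size 14 of 27 callable G1 genes had more contacts and 3 fewer. For S genes 10 of 23 had more and 0 fewer, and for mitosis genes 14 of 23 had more and 1 fewer. Over all callable genes 39.1% had more and 10.3% fewer, and the S count with more lies near that share. Many of those with more had no sham interaction, so that their ratio rests on the prior. Of the callable genes present in both lists, 7 of 20 G1, 6 of 19 S and 5 of 14 mitosis genes had more. Those with fewer were 3, 0 and 1. Over all such genes 23.4% had more and 12.7% fewer. None of these counts was tested against the shares over all genes. By modelled contacts the 4 with fewer lay at -0.56 to 0.51, and in that scaling 84.0% of all callable genes had more and 0.820% fewer. Among G1 genes Trp53, Tfdp1, which encodes the partner of E2F factors, and Lin9, of the DREAM complex, had 116, 91 and 69 contacts at day 6 and were missing from the sham list. At the low end of the callable G1 genes were Gadd45g (101 and 42 contacts, log2 -2.19), the inhibitor Cdkn1c (62 and 25, -2.13) and E2f8 (153 and 97, -1.69). Among S genes Rfc4, Rfc5 and Rfc1, subunits of the clamp loader of Pcna, were missing from the sham list and had 122, 122 and 106 contacts at day 6, while Gins1 (283 and 314, -0.93), Gins4 (61 and 82, -0.63) and Rpa1 (127 and 184, -0.55) were the lowest of those callable. Among mitosis genes Fzr1 and Anapc11, an activator and a subunit of the anaphase-promoting complex, had 377 and 213 contacts at day 6, and Cks2 had 105, while all 3 were missing from the sham list. Bub1b, a spindle checkpoint kinase, had the most sham contacts of its list, 392 against 349 at day 6 (log2 -1.25, interval -1.48 to -1.05). Kif11 (62 and 65, -0.96) and Kif23 (61 and 70, -0.84), kinesins of the spindle, followed.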

How the data were processed

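H3K27ac HiChIP of sorted microglia was analysed from 1 list of called interactions per library, sham and day 6. The submitters' processing notes name HiC-Pro 3.1.0, mm10 and GRCm38. Which program called the interactions is not given in the sources. Per the file headers, the deposited contact counts and the coverage counts of anchors are whole numbers for 10 kb bins 20 to 2000 kb apart. The deposited relative coverage is a ratio of coverage to 1 constant per library, the deposited expected contacts are a model signal, and the deposited p-values and q-values (all under 0.001) and model probabilities, given as a fraction, are those of the authors' caller. Modelled contacts are the expected contacts over that probability.

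Contacts were summed per gene over the 21887 protein-coding genes of RefSeq GRCm38.p6 with Python 3.11.15, pandas 2.3.3 and scipy 1.17.1, and the sums were tested on simulated data. An interaction with both anchors on a gene counted once, and genes in the same bin share interactions. The 5 prior contacts of the log2 ratios were scaled to each library. Intervals (95%, exact Poisson or Clopper-Pearson) cover counting error only, since PCR copies cannot be told from separate molecules. The members and lists were chosen with earlier results of these data known. Every member is named, with full values for those with at least 3 interactions in 1 list; of the other cell cycle genes that have as many, the 3 highest and 3 lowest ratios of each phase are named. The alternatives were 13 settings of scaling, prior, list length, q-value limit, gene assignment and minimum. Sequences are those of the gene with the most day 6 interactions in each phase, with 4 more chosen after values were seen.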

Additional observations from a re-analysis of the deposited data

How the results depend on the processing

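With 1 library per group no replicate could be left out, and no paired analysis was possible because each group has 1 sample. The medians below include genes found in 1 list only, whose ratio rests on the prior, and each stands beside the median over all genes. With scaling by shared interactions 13 of 20 members had more contacts and 0 fewer, with a median log2 ratio of 1.85 (all genes 1.68) in place of 0.87 (0.68). With scaling by modelled contacts 15 had more and 0 fewer, with a median of 2.33 (2.22). With lists of equal length 4 of 12 had more and the median was 0.71 (0.37). With a q-value limit of 1e-05, 11 of 35 members had a sham interaction, against 25.8% of all genes, and the median was 1.96 (1.80). With a flank of 5 kb the median was 1.23 (0.63), with gene ends only 1.31 (0.81), and with a prior of 20 contacts 0.60 (0.53). With start bins only 1 of 11 had fewer, against 11.7% of all genes. Ccnd1 and Ccnd2 had no start site and are not among these 11, while Cdkn1a stayed at -1.51. With start bins 10 of 28 had a sham interaction, against 31.5%, and the median was 1.61 (1.05). With anchors that hold no other coding gene 3 of 10 had more, against 38.5%. In that setting 10 of 35 had an interaction in sham and 19 at day 6, against 27.2% and 41.4%, and the median was 1.54 (0.73). With a minimum of 1 interaction 15 of 31 had more and 5 fewer, against 44.8% and 12.7%. The counts of members with more or fewer contacts stayed within 1.5 times under a prior of 1 or 20, no flank, a flank of 5 kb, a minimum of 5 interactions and the q-value limit. Across 11 settings and 20 members, 108 of 209 ratios stayed within the counting error of the chosen one. The sign differed in 20 of the 209, for Cdk6, Rb1, Mcm5, Pcna, Ccnd1, Cdkn1a, Birc5, E2f1 and Ccnd3. Of these, 2 were of members counted as having fewer contacts, Ccnd1 at 0.26 and Cdkn1a at 0.36, both with modelled contacts. Apart from the scalings, the cause of these shifts was not tested. Genes with 1 or 2 interactions rest on 13 to 42 contacts in a list, too few to order them.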
